A study of Arabidopsis thaliana with 30 samples.

Results

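The 10 genes described here encode the core enzymes of peroxisomal fatty acid beta-oxidation and the carrier that supplies them, in germinating Arabidopsis thaliana seeds. They were taken by locus from a table of 27827 genes and are PXA1 (AT4G39850), LACS6 (AT3G05970), LACS7 (AT5G27600), ACX1 (AT4G16760), ACX2 (AT5G65110), ACX3 (AT1G06290), ACX4 (AT3G51840), MFP2 (AT3G06860), AIM1 (AT4G29010) and KAT2 (AT2G33150). All 10 passed the noise filter, which asked that the 3 replicates of 1 or more groups exceed 4 on the log2 scale and which 17061 genes of the table passed. The study asked how mRNA abundance and the loading of mRNA onto ribosomes change between the dry seed and the green seedling. Polysomal mRNA, taken from the polysome region of a sucrose gradient, and total mRNA, taken from the same kind of crude extract, were each hybridized to arrays from dry seeds and from seeds imbibed for 6, 26, 48 or 72 h (hours after imbibition, HAI). Each of the 10 groups held 3 biological replicates, giving 30 arrays.

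Every group was wild-type Columbia (Col-0), with no transgene and no chemical treatment. The seeds were after-ripened, came from bulked plants and were imbibed on wet paper at constant temperature in continuous light. The 5 time points stand for the dry seed, early imbibition, the start of testa rupture, radicle protrusion and the greening seedling. Whole seeds and seedlings were used, so embryo, endosperm and seed coat were not separated.

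A germinating oilseed lives on triacylglycerol stored in oil bodies until it can photosynthesize. Free fatty acids, or their coenzyme A esters, enter the peroxisome through PXA1, an ATP-binding cassette transporter also called CTS or PED3, and the long-chain acyl-CoA synthetases LACS6 and LACS7 activate them to acyl-CoA inside. Each turn of the beta-oxidation spiral then uses an acyl-CoA oxidase (ACX), which makes hydrogen peroxide, a multifunctional protein (MFP2 or AIM1), which hydrates and oxidizes the product, and a thiolase, chiefly KAT2 (PED1), which releases acetyl-CoA for the glyoxylate cycle. In Arabidopsis, loss of PXA1, of KAT2 or of both LACS6 and LACS7 leaves seedlings unable to establish without added sugar.

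Levels below are RMA values on the log2 scale, and changes are differences of group means on that scale, with the standard error (SE) of the limma fit. A gene rose or fell where its change exceeded 1 in size with an adjusted p below 0.05 from limma with Benjamini-Hochberg adjustment over the 17061 genes, and changes that met only the adjusted p are given as values. The arrays were normalized to each other, so a change is relative to the other genes on the array, and in bulk tissue fewer cells of a type and less RNA per cell cannot be told apart. The level of one probe set was not set against that of another.

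Replicate arrays correlated at r = 0.965 to 0.991 over all genes, and the array medians lay between 3.53 and 4.15. The stage markers moved with the labels. The reserve genes CRA1, CRU3, SESA1 and OLEO1 fell between dry seeds and 72 HAI, with changes of −7.75 to −6.34 in total mRNA. RBCS1A and PSBO1, genes of the photosynthetic apparatus, rose by 5.07 and 7.05 in total mRNA over the same span, whereas the group means of LHCA1 stayed below the noise level, at 1.60 to 3.54. EPR1, an endosperm marker, fell by 5.78 in polysomal mRNA and fell by 4.24 in total mRNA, and its part in the changes of the 10 genes was not tested. All 10 genes were well above the noise level throughout, with single-array levels between 6.02 and 11.55. Their SDs within a group ranged over 0.011 to 0.345, with a median of 0.098 (n = 3).

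**Figure D1:**
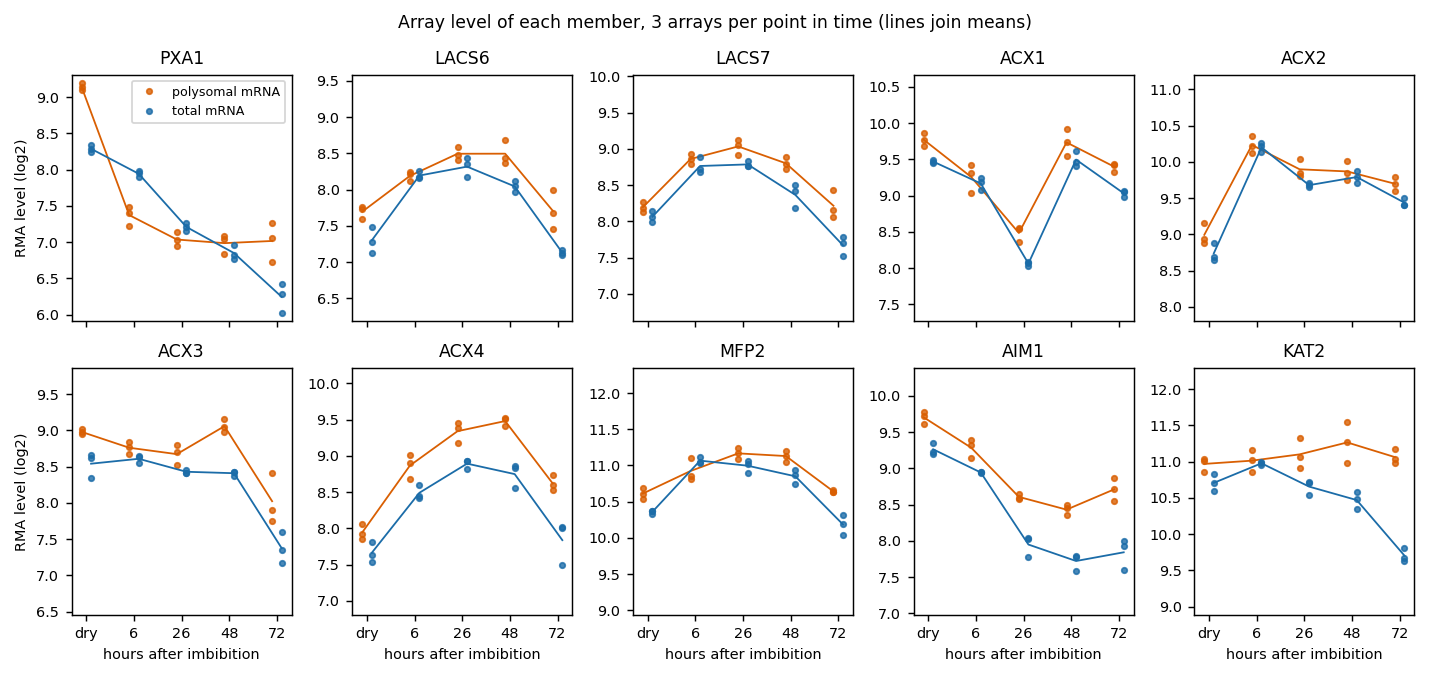
Array level (RMA, log2) of each gene against hours after imbibition, with 1 point per array and lines through the means of 3 arrays; polysomal mRNA is drawn left of total mRNA, and every panel spans the same range of log2 units. PXA1 and AIM1 were highest in dry seeds, ACX1 was lowest at 26 HAI, and KAT2 separated into a polysomal mean of 11.06 and a total mean of 9.70 at 72 HAI.

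The transporter gene PXA1 declined in both fractions, by different routes. Its polysomal mRNA measured 9.20, 9.14 and 9.09 in dry seeds, 7.49, 7.23 and 7.40 (6 HAI), 7.03, 6.94 and 7.14 (26 HAI), 7.04, 7.09 and 6.83 (48 HAI), and 7.06, 7.26 and 6.72 (72 HAI). Most of the decline lay in the first interval, where it fell by 1.77 (SE 0.13, adjusted p = 1.68e-11), and the replicates of the last 3 time points overlapped. The change between dry seeds and 72 HAI was −2.13 (SE 0.13, adjusted p = 7.07e-14). PXA1 was the only one of the 10 genes whose polysomal mRNA fell in either of these comparisons, against 15.1% of the tested genes that fell at 6 HAI and 31.1% that fell at 72 HAI, both relative to dry seeds.

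Total PXA1 mRNA measured 8.35, 8.28 and 8.24 in dry seeds, 7.99, 7.95 and 7.90 (6 HAI), 7.26, 7.15 and 7.21 (26 HAI), 6.96, 6.77 and 6.83 (48 HAI), and 6.28, 6.43 and 6.02 (72 HAI). The replicates of successive time points did not overlap, so the level stepped down at each stage. Between dry seeds and 72 HAI it fell by 2.04 (SE 0.13, adjusted p = 1.69e-13), which is 4.12-fold.

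The acyl-CoA synthetase genes LACS6 and LACS7 shared a broad maximum at 6 to 48 HAI. LACS6 total mRNA measured 7.13, 7.28 and 7.49 in dry seeds, 8.25, 8.17 and 8.16 (6 HAI), 8.35, 8.17 and 8.43 (26 HAI), 7.97, 8.12 and 8.05 (48 HAI), and 7.12, 7.17 and 7.10 (72 HAI). The 72 HAI level overlapped that of dry seeds. LACS7 total mRNA averaged 8.06 ± 0.08 in dry seeds, 8.76 ± 0.10 (6 HAI), 8.79 ± 0.04 (26 HAI), 8.36 ± 0.16 (48 HAI) and 7.67 ± 0.13 (72 HAI) (SD, n = 3), so it ended below its starting level. In no comparison did either gene pass the limit of 1. Their largest steps in total mRNA were the increases into 6 HAI, of 0.89 for LACS6 (adjusted p = 2.37e-06) and 0.70 for LACS7 (adjusted p = 2.45e-05), and the decreases into 72 HAI, of −0.91 (adjusted p = 5.35e-06) and −0.70 (adjusted p = 6.99e-05).

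The 4 acyl-CoA oxidase genes, whose enzymes divide the substrates by chain length, followed 4 different courses. ACX2, which prefers long chains, was the only one of the 10 genes to rise at 6 HAI in polysomal mRNA, where 16.9% of the tested genes rose, and also the only one to rise in total mRNA, where 16.8% did. Its polysomal mRNA was 10.22, 10.12 and 10.36 at 6 HAI, against 9.16, 8.94 and 8.89 in dry seeds, a change of 1.24 (SE 0.12, adjusted p = 1.15e-09). Its total mRNA was 10.13, 10.22 and 10.26 at 6 HAI, against 8.65, 8.69 and 8.88 in dry seeds, a change of 1.46 (SE 0.12, adjusted p = 7.25e-11). Dry seeds held the lowest ACX2 level of the 5 stages in both fractions, and at 72 HAI the gene was still 0.70 above them in each. The array medians were also higher at 72 HAI, by 0.44 in polysomal and 0.53 in total mRNA. With array medians set equal, 0 of the 10 genes were higher than in dry seeds at the adjusted p alone in total mRNA, and 1 in polysomal mRNA.

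ACX1, which prefers medium to long chains, had its lowest level at 26 HAI in both fractions. Polysomal ACX1 mRNA measured 9.69, 9.86 and 9.77 in dry seeds, 9.03, 9.43 and 9.31 (6 HAI), 8.54, 8.36 and 8.55 (26 HAI), 9.74, 9.91 and 9.54 (48 HAI), and 9.44, 9.43 and 9.33 (72 HAI). It was already lower at 6 HAI than in dry seeds, by −0.52 (SE 0.12, adjusted p = 0.000589), without reaching the limit of 1. The decrease into 26 HAI was −0.77 (SE 0.12, adjusted p = 5.64e-06) and did not reach the limit either, nor did any other of the 10 genes in that interval. Among all tested genes 24.5% passed in either direction. At an unadjusted p below 0.05 the limma fit gave 3 of the 10 higher and 4 lower, against 29.1% of the tested genes higher and 29.4% lower. The return at 48 HAI was a rise of 1.25 (SE 0.12, adjusted p = 2.13e-09), which no other member shared and which 14% of the tested genes showed.

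In total mRNA the decrease into 26 HAI was larger on these means, but the change in occupancy did not pass (adjusted p = 0.885). Total ACX1 mRNA measured 9.45, 9.49 and 9.46 in dry seeds, 9.19, 9.07 and 9.24 (6 HAI), 8.09, 8.08 and 8.03 (26 HAI), 9.46, 9.61 and 9.41 (48 HAI), and 9.06, 9.05 and 8.99 (72 HAI). The 26 HAI arrays lay below all others, and the 48 HAI arrays overlapped those of dry seeds. It fell by 1.10 (SE 0.12, adjusted p = 1.78e-08) between 6 and 26 HAI, the only one of the 10 to do so where 10.2% of the tested genes fell. It then rose by 1.43 (SE 0.12, adjusted p = 1.72e-10) between 26 and 48 HAI, again alone among the 10, where 15.3% of the tested genes rose.

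ACX3, which prefers medium chains, passed in no interval up to 48 HAI, its largest step there being 0.39 between 26 and 48 HAI on polysomes (adjusted p = 0.0231), and was lower at 72 HAI. Its polysomal mRNA was 7.75, 8.41 and 7.90 at 72 HAI, against 9.15, 8.98 and 9.04 at 48 HAI, and it fell by 1.03 (SE 0.14, adjusted p = 2.55e-06). Its total mRNA was 7.17, 7.36 and 7.60 at 72 HAI, against 8.42, 8.43 and 8.37 at 48 HAI, and it also fell by 1.03 (SE 0.14, adjusted p = 2.84e-06). ACX3 was the only one of the 10 to fall in that interval in either fraction, beside 7.34% of the tested genes in polysomal and 5.37% in total mRNA. Both values sat at the limit, and after a further quantile normalization they were −0.84 in polysomal and −0.89 in total mRNA, short of it.

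ACX4, which acts on short chains, had its highest means at 26 and 48 HAI. Its polysomal mRNA averaged 7.94 ± 0.10 in dry seeds, 8.87 ± 0.17 (6 HAI), 9.34 ± 0.14 (26 HAI), 9.48 ± 0.06 (48 HAI) and 8.62 ± 0.10 (72 HAI) (SD, n = 3). Its total mRNA averaged 7.66 ± 0.14, 8.49 ± 0.10, 8.89 ± 0.06, 8.75 ± 0.16 and 7.84 ± 0.29 at the same 5 stages. The 26 and 48 HAI replicates overlapped in both fractions. No single step passed the limit, the largest being the 6 HAI step of 0.92 on polysomes (SE 0.14, adjusted p = 2.67e-06).

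The multifunctional protein genes MFP2 and AIM1 encode proteins of the same step and moved apart. MFP2 total mRNA was 10.33, 10.38 and 10.37 in dry seeds, 11.04, 11.05 and 11.11 (6 HAI), 11.07, 10.90 and 11.02 (26 HAI), 10.74, 10.94 and 10.87 (48 HAI), and 10.20, 10.31 and 10.05 (72 HAI). AIM1 total mRNA was 9.23, 9.20 and 9.35 in dry seeds, 8.93, 8.95 and 8.95 (6 HAI), 8.03, 7.78 and 8.03 (26 HAI), 7.59, 7.78 and 7.79 (48 HAI), and 7.93, 7.59 and 8.0 (72 HAI). In total mRNA, every array at 6 to 48 HAI was thus above all dry seed arrays for MFP2 and below all of them for AIM1. Between dry seeds and 72 HAI, AIM1 total mRNA fell by 1.42 (SE 0.13, adjusted p = 7.80e-11), while MFP2 differed by −0.18 (SE 0.11, adjusted p = 0.148). AIM1 polysomal mRNA changed by −0.99 (SE 0.13, adjusted p = 5.72e-08), just inside the limit.

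KAT2, the thiolase gene, was the member whose fractions separated most. Its polysomal mRNA was 11.01, 11.03 and 10.86 in dry seeds, 10.86, 11.16 and 11.02 (6 HAI), 10.91, 11.06 and 11.32 (26 HAI), 10.97, 11.55 and 11.27 (48 HAI), and 10.98, 11.03 and 11.18 (72 HAI). These 15 values overlapped from stage to stage, and the group means spanned 0.296. Its total mRNA was 10.59, 10.83 and 10.70 in dry seeds, 10.98, 10.96 and 10.99 (6 HAI), 10.70, 10.54 and 10.72 (26 HAI), 10.35, 10.58 and 10.48 (48 HAI), and 9.63, 9.67 and 9.81 (72 HAI). The 72 HAI arrays lay below all other arrays of total mRNA, and the change against dry seeds was −1.003 (SE 0.14, adjusted p = 3.12e-07). That value exceeded the limit narrowly, since it was −0.80 after a further quantile normalization and between −0.98 and −0.94 without total dry replicate 2 or total 72 HAI replicate 1 or 2.

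In the first interval the 10 genes changed in both directions, at shares not far from those of all tested genes. In total mRNA, 5 of 10 genes were higher at 6 HAI than in dry seeds at the adjusted p alone, against 34.2% of the tested genes. They were LACS6, LACS7, ACX2, ACX4 and MFP2. In the other direction PXA1 (−0.34), ACX1 (−0.30) and AIM1 (−0.32) were lower, 3 of 10 against 21.2% of the tested genes. The median change was 0.48 over the 10 genes and 0.10 over all tested genes.

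On polysomes 6 of 10 genes were lower at 72 than at 48 HAI at the adjusted p alone, against 23.6% of the tested genes. They were LACS6, LACS7, ACX1, ACX3, ACX4 and MFP2. In total mRNA, 9 of 10 genes were lower at 72 than at 48 HAI at the adjusted p alone, against 19.7% of the tested genes, with AIM1 the exception at 0.12 (adjusted p = 0.496). The 72 HAI replicates of those 9 genes all lay below their 48 HAI replicates. The 9 had been picked by the adjusted p of the same arrays, so this adds no separate evidence, and the separation was not counted over all tested genes. The median change was −0.41 in polysomal and −0.68 in total mRNA, beside −0.06 over all tested genes in each fraction.

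At 72 HAI, relative to dry seeds, PXA1 alone of the 10 genes fell in polysomal mRNA and none rose, whereas 30.2% of the tested genes rose. ACX3 and AIM1, with −0.96 and −0.99, missed the limit there. In total mRNA 4 of the 10 fell, namely PXA1, ACX3, AIM1 and KAT2, and none rose, while 27.1% of all tested genes fell and 33% rose. ACX3 fell by 1.16 (SE 0.14, adjusted p = 3.80e-08). The median change of the 10 genes was 0.02 in polysomal and −0.42 in total mRNA, and that of all tested genes was −0.14 in polysomal and 0.06 in total mRNA.

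These signs depended on the scaling for the genes with small changes. The array median over all genes was higher at 72 HAI than in dry seeds by 0.44 in polysomal and 0.53 in total mRNA. With array medians set equal, the median change of the 10 genes was −0.42 in polysomal and −0.95 in total mRNA, and 2 and 1 of the 10 had a positive value, in place of 6 and 2. ACX3 and AIM1 then fell in polysomal mRNA too, with −1.40 and −1.43. In total mRNA 4 genes fell with equal medians as well. After a further quantile normalization 6 of the 10 had a positive value in polysomal and 2 in total mRNA.

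**Figure D2:**
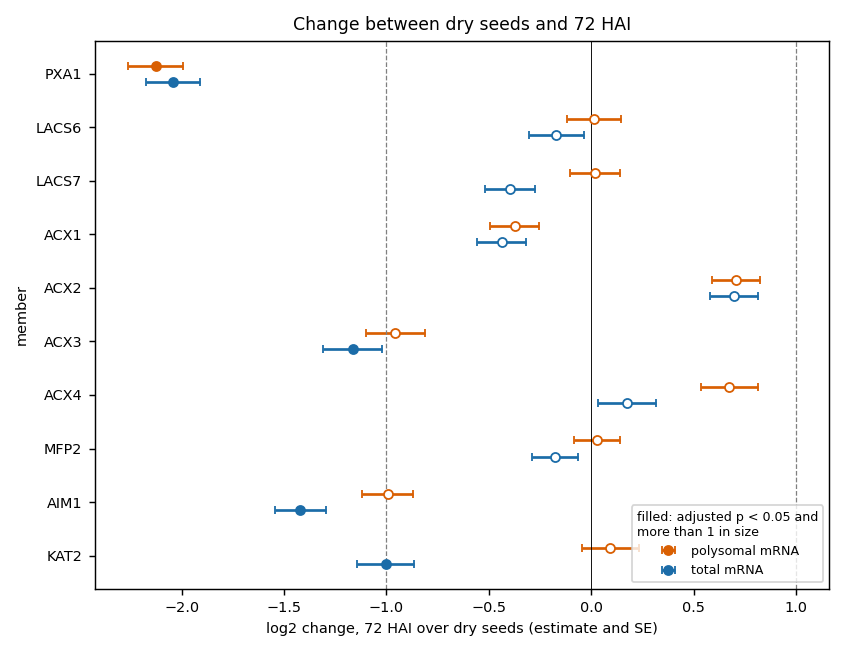
Log2 change between dry seeds and 72 HAI for each gene (estimate and SE from limma, 3 arrays per group), polysomal mRNA drawn above total mRNA; filled points changed by more than 1 (dashed lines) with an adjusted p below 0.05. PXA1 lies near −2 in both fractions, and KAT2 lies at 0.09 in polysomal and at −1.003 in total mRNA.

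Polysome occupancy, the polysomal minus the total level on the log2 scale, showed how far each mRNA was over- or under-represented on polysomes relative to the average mRNA. In dry seeds all 10 genes had positive values, as had 58.3% of the tested genes. The median was 0.29, beside 0.09 over all tested genes. In 9 of 10 all polysomal arrays lay above all total arrays, as in 24.4% of the tested genes. None reached 1, and 3.39% of the tested genes passed in either direction. With limma, 7 of 10 were higher at an unadjusted p below 0.05, against 24.1% of the tested genes, and 4 of 10 at the adjusted p, against 15.7%. PXA1 had the highest value of the 10, 0.86 (SE 0.13, adjusted p = 8.99e-05).

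At 6 HAI the median was 0.06, equal to that of all tested genes, and 7 of 10 values were positive, against 55.9% of the tested genes. None passed, against 3.97% of the tested genes in either direction. At an unadjusted p below 0.05 in limma, 2 of 10 were higher, against 18.7% of the tested genes, and 1 was lower, against 14.6%. The lower one was PXA1, at −0.57 (SE 0.13, adjusted p = 0.00358), and its 3 polysomal arrays lay below its 3 total arrays.

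At 26 HAI the median was 0.25, beside 0.05 over all tested genes. PXA1 alone was negative (−0.17, limma, adjusted p = 0.377), where 54.9% of the tested genes were positive. In 8 of 10 genes the polysomal arrays all lay above the total arrays, as in 23.7% of the tested genes. None reached 1, where 3.49% of the tested genes did in either direction. In limma 4 of 10 genes had higher polysomal levels at an unadjusted p below 0.05, against 18.9% of the tested genes, and 4 did at the adjusted p, against 11%.

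At 48 HAI all 10 values were positive, as were 57.1% of the tested genes, with a median of 0.44 beside 0.10. None reached 1, and 10.1% of the tested genes did in either direction. At the adjusted p alone 6 of 10 were higher on polysomes, against 22.5% of the tested genes, and 7 of 10 were at an unadjusted p below 0.05, against 27.5%. Separation of all polysomal from all total arrays was seen in 7 of 10, against 29.8%. After a further quantile normalization 9 of the 10 values were positive.

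At 72 HAI the median reached 0.61, beside 0.07 over all tested genes, of which 55.1% had a positive value. All 10 genes had polysomal arrays that lay above all of their total arrays, as did 25.8% of the tested genes. At the adjusted p alone 9 of 10 were higher on polysomes, against 22.6% of the tested genes, the exception being ACX2 with 0.26 (adjusted p = 0.0790). The 10 values stayed positive with equal array medians and after a further quantile normalization. KAT2 alone passed the limit of 1, as did 4.26% of the tested genes. Its polysomal level exceeded the total level by 1.36 (SE 0.14, adjusted p = 3.44e-08), or 2.56-fold, and 0.95% of the tested genes had a larger value.

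**Figure D3:**
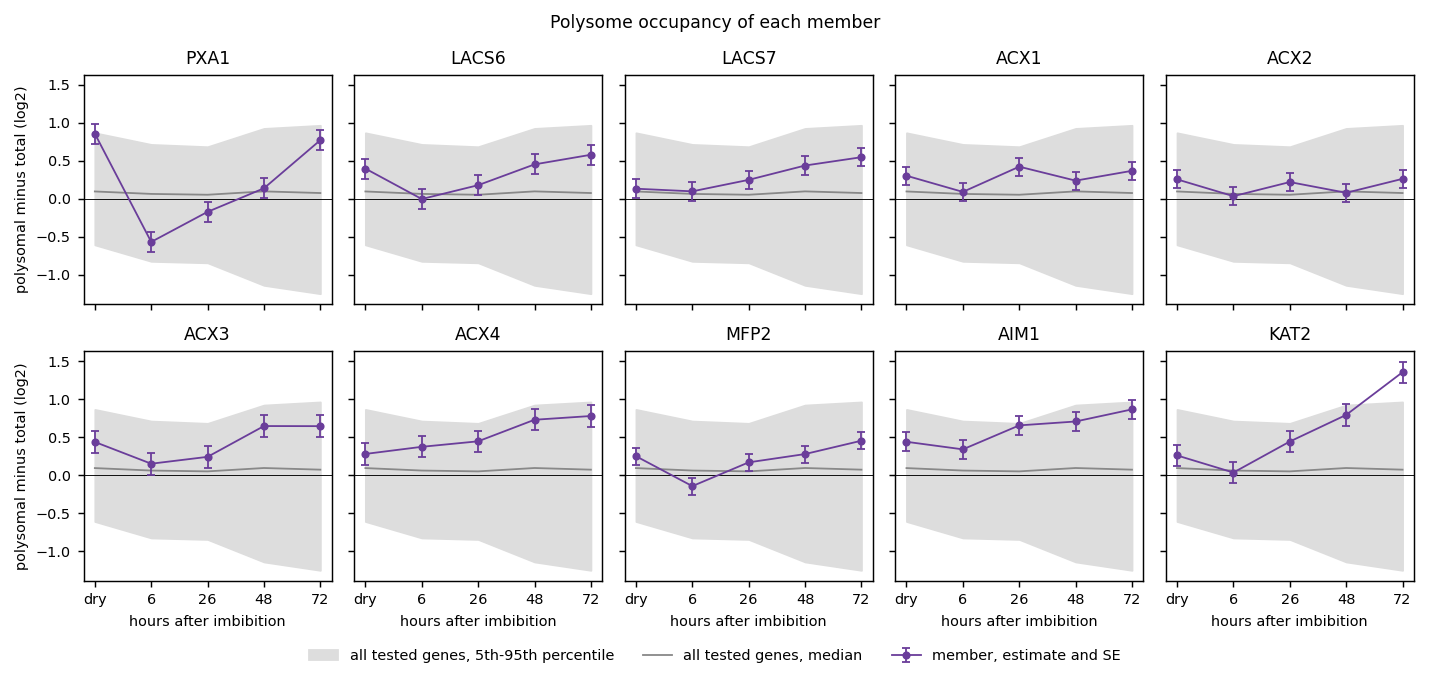
Polysome occupancy (polysomal minus total level, log2) of each gene against hours after imbibition, with the estimate and SE from limma (3 arrays per fraction); grey marks the median and the span of percentile 5 to percentile 95 of 17061 genes. PXA1 lies at −0.57 at 6 HAI and at 0.77 at 72 HAI, and KAT2 leaves the grey band at 72 HAI with 1.36.

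The change in occupancy was tested as a contrast of 4 groups. At 6 HAI relative to dry seeds, 1 of the 10 genes passed. The occupancy of PXA1 fell by 1.43 (SE 0.19, adjusted p = 5.13e-05), a 2.69-fold loss, with 2.32% of the tested genes showing a larger one and 7.05% falling past the limit. The underlying changes were −1.77 in polysomal and −0.34 in total mRNA. The other 9 genes ranged between −0.40 for LACS6 (adjusted p = 0.144) and 0.09 for ACX4 (adjusted p = 0.785).

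None of the 10 passed in the later single intervals. Between 6 and 26 HAI the values ran from 0.07 to 0.41, all positive, with a median of 0.25 beside −0.003 over all tested genes. The share of positive values over all tested genes was not counted. In the interval before, which shares the 6 HAI arrays, 9 of the 10 values were negative. Between 6 and 26 HAI 2 of 10 were higher at an unadjusted p below 0.05 in limma, as were 2.63% of the tested genes, and 0.0234% of the tested genes passed in either direction. Between 26 and 48 HAI the values ran from −0.18 for ACX1 to 0.41 for ACX3, with 0 of 10 at an unadjusted p below 0.05 in limma, against 20.7% of the tested genes in either direction, while 4.4% passed. Between 48 and 72 HAI the largest values were 0.63 for PXA1 (adjusted p = 0.188) and 0.56 for KAT2 (adjusted p = 0.283), the only pair below an unadjusted p of 0.05, where 4.33% of the tested genes were higher, and 0.205% of the tested genes passed.

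Over the whole period between dry seeds and 72 HAI, the occupancy of KAT2 rose by 1.10 (SE 0.20, adjusted p = 0.000289), a 2.14-fold gain, and 3.73% of the tested genes had a larger one. It was the only one of the 10 to rise, beside 4.28% of the tested genes. No single interval carried this gain, the KAT2 occupancy being 0.26, 0.04, 0.44, 0.80 and 1.36 at the 5 stages. ACX4 (0.50, adjusted p = 0.0687), AIM1 (0.43, adjusted p = 0.0831) and LACS7 (0.42, adjusted p = 0.0847) had the next largest values and did not pass. For PXA1 the drop at 6 HAI was followed by positive changes in occupancy in each single interval, none of which passed. Its occupancy was −0.57 at 6 HAI and 0.77 at 72 HAI, a change that was not tested as 1 contrast. Over the whole period the PXA1 value was −0.09 (SE 0.19, limma, adjusted p = 0.778). Its polysomal level did not return, with means of 7.37 at 6 HAI and 7.02 at 72 HAI, while its total mRNA went from 7.94 to 6.25.

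Genes of one step were compared through their difference within each array, tested over the 5 stages with an exact permutation test that used all 1401400 partitions of 15 arrays into 5 groups of 3. Of 16 such tests, on 8 pairs in 2 fractions, 15 had an adjusted p below 0.05. Most of the pairs were drawn from the acyl-CoA oxidase genes and shared members, so the tests were not independent. Pairs of other genes were not tested, so whether the count is particular to genes of one step is not known. Between dry seeds and 72 HAI, 82.1% of the tested genes changed in polysomal and 81.8% in total mRNA at the adjusted p alone. The difference between MFP2 and AIM1 gained, relative to dry seeds, 0.73, 1.65, 1.79 and 1.02 at 6, 26, 48 and 72 HAI in polysomal mRNA (SE 0.09 to 0.14, exact permutation test, adjusted p = 7.61e-06). In total mRNA it gained 1.03, 1.95, 2.03 and 1.25 (SE 0.05 to 0.20, exact permutation test, adjusted p = 4.06e-05).

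Among the oxidases the difference of ACX1 and ACX4 varied most. Relative to dry seeds it was −2.68 at 26 HAI in polysomal mRNA (SE 0.15) and −2.64 in total mRNA (SE 0.10). The exact permutation test, which covers all 5 stages and not 26 HAI alone, gave adjusted p of 6.85e-06 in polysomal and 9.79e-06 in total mRNA. ACX1 against ACX2 gave −2.19 in polysomal (SE 0.15) and −2.35 in total mRNA (SE 0.08) at the same time point. The pair of ACX2 and ACX4 differed least, spanning 0.979 in polysomal and 0.923 in total mRNA over the 5 stages, which still exceeded the spread between replicates (adjusted p = 6.75e-05 and 0.00251, exact permutation test).

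LACS7 and LACS6 kept closest together. Their difference spanned 0.366 in polysomal mRNA, with an exact permutation p of 0.141, and 0.445 in total mRNA, where the adjusted p was 0.0441. In polysomal mRNA the largest departures from dry seeds were 0.17 at 6 HAI (SE 0.10) and −0.19 at 48 HAI (SE 0.16).

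**Figure D4:**
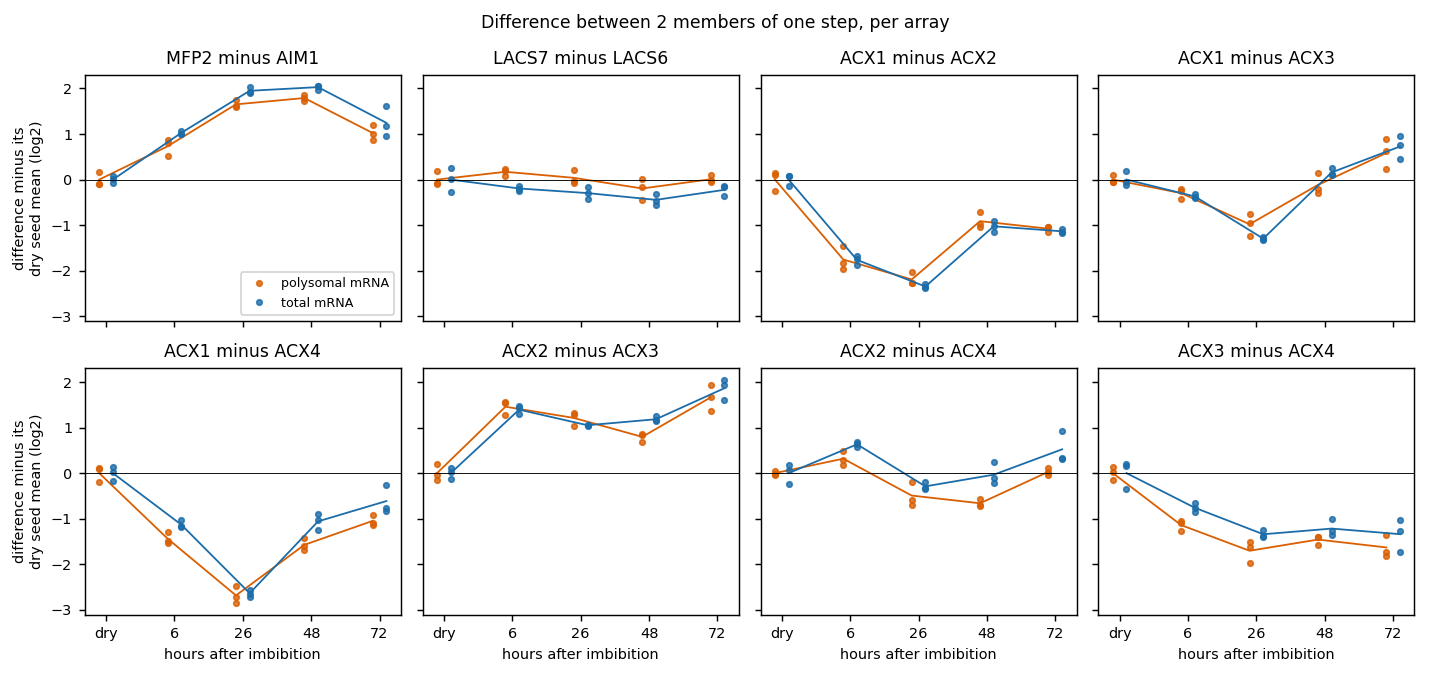
Difference between 2 genes of the same step in each array, less its dry seed mean (log2), against hours after imbibition; points are arrays, lines join the means of 3, and polysomal mRNA is drawn left of total mRNA. MFP2 minus AIM1 reaches 1.79 in polysomal and 2.03 in total mRNA at 48 HAI, whereas LACS7 minus LACS6 stays within 0.45 of its dry seed value on average.

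Profiles over the 10 group means were compared by Pearson's r, as a description, since the means of one stage share their seeds and their normalization. LACS6 and MFP2 had r = 0.991, and each was the gene most like the other among 17060 genes. LACS7 was closest to MFP2 among the 10, at r = 0.961 and rank 45, and ACX4 to LACS6, at r = 0.919 and rank 110. ACX3 and KAT2 were each other's best match within the pathway, at r = 0.812 and ranks 66 and 70. PXA1 and AIM1 had r = 0.834, AIM1 standing at rank 2006 for PXA1 and PXA1 at rank 1472 for AIM1. ACX1 matched no other of the 10 closely, with AIM1 the best at r = 0.422, and the least alike pair was PXA1 and ACX2, at r = −0.47.

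The mean of the 10 scaled profiles was followed most closely, outside the 10, by MLS (AT5G03860), the malate synthase gene, at r = 0.966. AT5G28150 (r = 0.942), AT5G45730 (r = 0.931), mSFC1 (AT5G01340, r = 0.927) and COP8 (AT5G42970, r = 0.922) came next. Of the 10 genes themselves, KAT2 (r = 0.915) lay nearest to that mean and ACX1 (r = 0.114) farthest. Each of the 10 is part of the mean, which raises its r, so these values are not comparable with those of the outside genes.

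The other genes of peroxisomal lipid use were read from lists made for the pathway. Of 17 further beta-oxidation genes, 16 were tested (ACX6 was not above noise). At 72 HAI against dry seeds 3 rose and 3 fell in polysomal mRNA, beside 30.2% of all tested genes that rose and 31.1% that fell. In total mRNA 3 rose and 4 fell, beside 33% that rose and 27.1% that fell. The median change was −0.21 in polysomal and −0.51 in total mRNA. ECI3, an enoyl-CoA isomerase gene, had the largest rise in total mRNA, 4.63 (SE 0.16, adjusted p = 4.54e-19), although its dry seed means of 3.07 in polysomal and 3.96 in total mRNA were below the noise level, which makes the size uncertain. For the same reason no occupancy change from dry seeds is given for it. IBR3, an acyl-CoA dehydrogenase-like gene, had the largest decrease and fell by 2.52 (SE 0.14, adjusted p = 3.03e-15).

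In the glyoxylate cycle list, which also holds the peroxisomal malate dehydrogenases, all 6 genes were tested, and 1 rose and 1 fell in total mRNA between dry seeds and 72 HAI, where 33% of all tested genes rose and 27.1% fell. PMDH2, a peroxisomal malate dehydrogenase gene, rose by 3.78 (SE 0.17, adjusted p = 1.16e-16) with dry seed means of 3.52 in polysomal and 3.89 in total mRNA, below the noise level. CSY3, a peroxisomal citrate synthase gene, fell by 1.38 (SE 0.12, adjusted p = 9.33e-11). At 72 HAI all 6 had positive occupancy, as had 55.1% of the tested genes, with a median of 0.55. MLS, whose profile lay closest to the mean of the 10, had an occupancy of 0.62 at that stage.

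Of 5 genes for removal of hydrogen peroxide, 2 rose and 1 fell in total mRNA over the same span, read against the same shares of 33% and 27.1%. APX3, a membrane-bound ascorbate peroxidase gene of the peroxisome, rose by 2.61 (SE 0.13, adjusted p = 1.23e-15), and CAT1, a catalase gene, fell by 2.84 (SE 0.16, adjusted p = 1.44e-14).

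The 21 peroxin genes, whose products build peroxisomes and import their enzymes, were all tested. At 72 HAI against dry seeds 11 fell and 1 rose in polysomal mRNA, beside 31.1% of all tested genes that fell and 30.2% that rose. In total mRNA 12 fell and 1 rose, beside 27.1% that fell and 33% that rose. Their median change was −1.05 in polysomal and −1.19 in total mRNA. PEX10, a RING-finger peroxin gene of the membrane, had the largest decrease in total mRNA and fell by 3.12 (SE 0.13, adjusted p = 3.31e-17). The 1 that rose was PEX11D, a peroxisome proliferation gene, by 2.19 (SE 0.19, adjusted p = 8.55e-11). No peroxin gene passed the limit of 1 for occupancy in a single interval. Between 26 and 48 HAI, 2 of the 21 were higher at the adjusted p alone, a rule not counted over all tested genes there. The largest value of the list was 0.87. At an unadjusted p below 0.05 in limma 3 of the 21 were higher and 1 was lower, against 20.7% of the tested genes in either direction. With the limit of 1, 4.4% of the tested genes passed in either direction in that interval, beside 0.0234% between 6 and 26 HAI and 0.205% between 48 and 72 HAI.

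**Figure D5:**
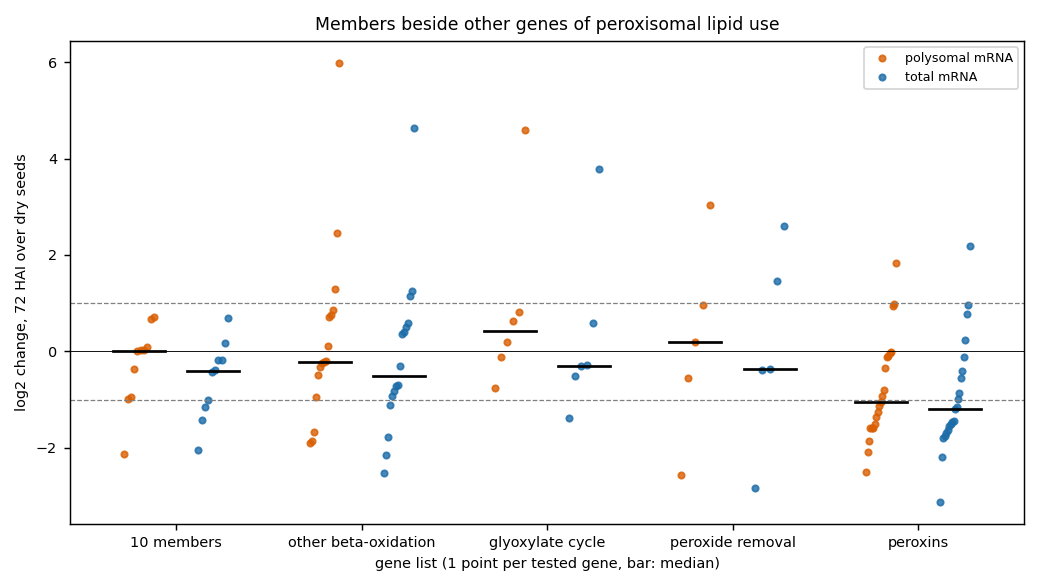
Log2 change between dry seeds and 72 HAI (1 point per tested gene, bars at the list medians, dashed lines at a change of 1) for the 10 genes and the 4 related lists, polysomal mRNA drawn left of total mRNA. The peroxins have medians of −1.05 in polysomal and −1.19 in total mRNA, and the 10 genes have medians of 0.02 in polysomal and −0.42 in total mRNA.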

How the data were processed

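Each of the 30 arrays (Arabidopsis Gene ST) was assigned to its fraction, stage and replicate by its label. The authors deposited log2 values, made by RMA, which corrects the background, quantile-normalizes the probes and gives 1 level per gene, here with a Brainarray probe set definition. Labels and methods name different labelling kits, and the molecule label of polysomal arrays also reads total RNA. Because the arrays were normalized together, changes are relative to other genes. Precision rests on 3 arrays per group.

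Of 27827 genes, the 17061 that exceeded 4 in the 3 replicates of any group were tested. R 4.3.3 and limma 3.58.1 were used to fit 10 group means to the 30 arrays, with moderated variances and Benjamini-Hochberg adjustment over the 17061 genes for each contrast. A call needed an adjusted p below 0.05 and a log2 change above 1 in size, as the methods set it. Pairs of genes were compared with an exact permutation test, adjusted over 16 tests. Both tests were tried on simulated data. Figures were drawn with matplotlib 3.10.9.

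The 10 genes and all lists were chosen with earlier results of these data known. Named beside them are, in each related list, the largest rise and fall in total mRNA over the whole period and every gene called for occupancy in a single interval, the 5 genes most like the mean profile, and the stage markers. Other genes are named only where stated. Gene names came from the RefSeq gene table for TAIR10.1, which held 27241 of the 27827 loci, and its synonyms. Coordinates and sequences were not used here. The alternatives were 3 other noise filters, equal array medians, a second quantile normalization, fits to only the groups compared, a replicate block, trended robust moderation, no limit on the change, and leaving out each array.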

Additional observations from a re-analysis of the deposited data

Results flagged for a closer look

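For 2 of the 10 genes, the change over time differed between polysomal and total mRNA by the test of that difference. The occupancy of PXA1 changed by −1.43 between dry seeds and 6 HAI (limma, adjusted p = 5.13e-05), and the value stayed between −1.48 and −1.35 when each array was left out in turn. The occupancy of KAT2 changed by 1.10 between dry seeds and 72 HAI (limma, adjusted p = 0.000289), and the value stayed between 1.03 and 1.15 when each array was left out. Groups of 3 arrays are too small for a test of single outlying arrays.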

How the results depend on the processing

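No alternative reversed the direction of a call. Counts of the 10 genes called moved as follows. With no limit on the change, at the adjusted p alone, the counts in polysomal mRNA were 8 (6 HAI against dry seeds), 5 (26 against 6 HAI), 2 (48 against 26 HAI), 6 (72 against 48 HAI) and 6 (72 HAI against dry seeds), and in total mRNA 8, 5, 3, 9 and 7 in the same order. The shares of all tested genes were 59.6%, 53.8%, 59.3%, 40.2% and 82.1% in polysomal and 55.4%, 54.8%, 61.3%, 35.1% and 81.8% in total mRNA. For polysomal against total mRNA they were 4, 1, 4, 6 and 9 in dry seeds and at 6, 26, 48 and 72 HAI, against 20.4%, 20.9%, 21%, 37.7% and 39.9% of the tested genes. With equal array medians 1 gene fell in polysomal mRNA between 6 and 26 HAI (ACX1 −1.04), 3 fell in total mRNA (PXA1 −1.04 and AIM1 −1.30 added), and 3 fell at 72 HAI against dry seeds on polysomes. After a further quantile normalization 2 fell in total mRNA between 6 and 26 HAI (AIM1 −1.02 added), and 0 between 48 and 72 HAI in either fraction. Leaving out 1 array gave, in polysomal mRNA, 0 to 1 genes between 48 and 72 HAI (ACX3 lost without polysomal 48 HAI replicate 1, at −0.99, or 72 HAI replicate 1 or 3, at −0.90 and −0.98) and 1 to 3 at 72 HAI against dry seeds. There AIM1 joined without polysomal dry replicate 2, with −1.04, and ACX3 and AIM1 without polysomal 72 HAI replicate 2, with −1.15 and −1.07. It gave 2 to 3 at 6 HAI against dry seeds, where ACX4 joined with 1.01 without polysomal 6 HAI replicate 1. In total mRNA it gave 1 to 2 between 6 and 26 HAI (AIM1 joined without total 26 HAI replicate 1 or 3, with −1.04 in both cases), 0 to 2 between 48 and 72 HAI (ACX3 −0.93 without total 72 HAI replicate 1, and ACX4 joined, with −1.004, without total 48 HAI replicate 1) and 3 to 4 at 72 HAI against dry seeds. The pair tests gave 14 to 16 of 16, the LACS pair deciding. Replicate numbers were not used as pairs in the main fits. Deviations of same-numbered polysomal and total arrays from their group means had r = −0.0016 to 0.20, with a median of 0.07, over 0.1 in 2 of 15 pairs. Values this weak cannot exclude that same-numbered arrays came from one extract. The replicate block changed no call (1 gene still fell in total mRNA between 48 and 72 HAI, and 15 of 16 pair tests passed). Other noise filters, fits to only the groups compared and trended robust moderation left each count within 1.5 times. The number of arrays, 3 a group, limits the precision.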

Other observations

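Besides KAT2, 3 of the 48 tested genes of the related lists passed the test for a higher polysome occupancy at 72 HAI than in dry seeds, beside 4.28% of all tested genes, and they are named here because of these values. For ECI3 and KAT5, a further thiolase gene, the dry seed means were below the noise level of 4 in both fractions, so no gain is given. CSY2, a peroxisomal citrate synthase gene, was above it and gained 1.11 (SE 0.23, limma, adjusted p = 0.00133), with 7.76 in polysomal and 6.69 in total mRNA at 72 HAI, against 6.95 in polysomal and 6.98 in total mRNA in dry seeds.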
